A study of Homo sapiens with 8 samples.

Results

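The replication-dependent histone genes, which supply the linker histone H1 and the core histones H2A, H2B, H3 and H4 during S phase, were followed across 4 conditions of IMR90, a human lung fibroblast line. Members were taken by gene symbol as the H1 genes H1-1 to H1-6 and all genes named H2AC, H2BC, H3C or H4C with a number. The rule found 66 of the 28265 counted genes, of which 6 encode H1, 16 H2A, 17 H2B, 13 H3 and 14 H4. RNA was counted in 2 libraries each of control cells (labelled young), cells after 3 days and after 6 days of 10 µM ICM, and cells labelled MetaICM. ICM (inflachromene) is a small molecule that binds the chromatin proteins HMGB1 and HMGB2 and was studied as a chemical inducer of senescence. What MetaICM stands for, and whether the control cells received solvent, are not given in the sources used here. All libraries come from this single line, and no source says that the libraries of a condition were separate cultures, so the p-values measure the spread between these libraries only.

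Replication-dependent histone genes are short and intronless, lie in clusters, and are transcribed at histone locus bodies, where NPAT, the coactivator activated by cyclin E and CDK2, acts on their promoters. Their main mRNAs end just after a conserved stem-loop and carry no poly(A) tail. The stem-loop binding protein SLBP and the U7 snRNP direct that cleavage, and the mRNA is degraded when DNA synthesis stops. A part of these genes can also give longer, polyadenylated transcripts, which are known from cells that have left the cycle. The library titles name factory RNA-seq, a method that enriches nascent RNA from transcription sites, whereas the extraction label names whole-cell RNA and a poly(A)+ selection. Under poly(A)+ selection, RNA that ends at the stem-loop would be captured less well than polyadenylated RNA. The labels do not settle which of these was done, and the counts do not separate the RNA forms.

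The members fall into 4 places of hg19 (GRCh37). The chromosome 1 group, chr1:149754245-149859466, holds 11 members. On chromosome 6, chr6:25726291-26285727 holds 34, chr6:27100095-27115341 holds 5 and chr6:27775257-27861669 holds 16. Of the 66 members, 56 are counted over 1 unbroken exon interval, and the counted exon length runs from 354 to 2223 bases with a median of 468 bases.

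The 3′ stem-loop is what sets these transcripts apart, so its 26-base window is shown for genes that the results below turn on, with the 16 bases of stem and loop in capitals. The sequences were read from the GRCh37 genome on the gene's own strand, 5′ to 3′.
H1-5, chr6:27834570-27834595, minus strand: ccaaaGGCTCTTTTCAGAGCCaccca
H2BC14, chr6:27783242-27783267, plus strand: ccaaaGGCTCTTTTCAGAGCCgtcca
H2AC14, chr6:27782081-27782106, minus strand: acaaaGGCTCTTTTCAGAGCCacttc
H1-2, chr6:26055967-26055992, minus strand: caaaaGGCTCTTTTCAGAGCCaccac
H2AC6, chr6:26124892-26124917, plus strand: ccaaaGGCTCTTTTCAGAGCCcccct
H2BC12, chr6:27114140-27114165, minus strand: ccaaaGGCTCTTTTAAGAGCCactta
H4C8, chr6:26285354-26285379, minus strand: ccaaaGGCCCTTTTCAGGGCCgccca
H1-6, chr6:26107640-26107665, minus strand: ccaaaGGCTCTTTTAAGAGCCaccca
The element was found within 100 bases of the gene end in 53 of the 60 members with a searched window (88.3%) and in 59 of 27479 genes (0.215%). When each exon interval and the 100 bases after it were searched, the element was found in 57 members. H2BC12 was among those outside the first count. Of the 57, 34 held the form seen in H1-5, the most common. The form of H4C8 was found in 9 members, all of them H4 genes, and the form of H2BC12 and H1-6 in 9 others.

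Promoters are shown for 5 members that lie far apart in the comparisons below, as the 250 bases before the counted start, with 3 motifs in capitals on either strand. The first, CCAAT, is bound by the factor NF-Y. The second, TATAAA, is a form of the TATA box. The third, ATTTGCAT, is the octamer bound by POU2F1.
H2BC14, chr6:27782572-27782821, plus strand: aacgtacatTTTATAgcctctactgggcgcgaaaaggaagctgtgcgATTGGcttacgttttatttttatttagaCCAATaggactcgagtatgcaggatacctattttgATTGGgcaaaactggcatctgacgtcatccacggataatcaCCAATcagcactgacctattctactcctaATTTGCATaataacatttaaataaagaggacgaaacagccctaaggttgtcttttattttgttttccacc
H1-5, chr6:27835360-27835609, minus strand: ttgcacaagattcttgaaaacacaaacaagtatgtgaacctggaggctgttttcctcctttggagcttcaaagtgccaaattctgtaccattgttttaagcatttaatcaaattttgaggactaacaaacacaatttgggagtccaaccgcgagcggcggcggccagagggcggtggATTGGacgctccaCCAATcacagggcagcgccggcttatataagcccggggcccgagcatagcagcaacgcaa
H1-2, chr6:26056700-26056949, minus strand: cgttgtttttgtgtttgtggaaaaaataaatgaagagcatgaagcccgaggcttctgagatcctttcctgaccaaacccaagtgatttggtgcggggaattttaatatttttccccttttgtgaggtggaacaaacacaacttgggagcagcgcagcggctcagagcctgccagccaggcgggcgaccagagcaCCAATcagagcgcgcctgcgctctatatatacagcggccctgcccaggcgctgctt
H4C8, chr6:26285728-26285977, minus strand: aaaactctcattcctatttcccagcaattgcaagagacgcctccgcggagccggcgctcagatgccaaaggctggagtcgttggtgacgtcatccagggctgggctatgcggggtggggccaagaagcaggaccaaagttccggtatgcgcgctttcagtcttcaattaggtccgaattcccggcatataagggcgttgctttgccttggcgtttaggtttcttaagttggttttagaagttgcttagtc
H1-6, chr6:26108365-26108614, minus strand: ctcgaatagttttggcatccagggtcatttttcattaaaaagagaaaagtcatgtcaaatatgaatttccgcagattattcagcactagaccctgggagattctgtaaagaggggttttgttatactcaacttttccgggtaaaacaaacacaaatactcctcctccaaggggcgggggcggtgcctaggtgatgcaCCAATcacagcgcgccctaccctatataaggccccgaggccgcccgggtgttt
Of the 60 members with a window, 53 (88.3%) held CCAAT against 32.9% of 27479 genes. TATAAA was found in 65.0% of members and in 10.8% of genes, and the octamer in 41.7% and 1.71%. The octamer was in 10 of 14 H2A, 14 of 17 H2B and 1 of 11 H3 windows, and in no H1 or H4 window. Windows of members that start close together on opposite strands overlap, so the same bases can count for both. The H3 window with the octamer, that of H3C4, is the same stretch as the window of H2AC7. The windows are therefore not all separate promoters. CCAAT was in every H1, H2A, H2B and H3 window but in 5 of 12 H4 windows, whereas GGTCCG was in 10 of 12 H4 windows and in 9.80% of genes. Of 2 forms of the E2F site, TTTGGCGC was in no member window and in 0.560% of genes. The other form, TTTCCCGC, was in 2 member windows (3.33%), those of H4C1 and H4C7, and in 1.42% of genes. These are letter matches on both strands and do not show binding.

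The 8 libraries held 12095123 to 23166405 counted read pairs, with a median of 18642269.5. The 2 libraries of a condition differed by more than counting noise (chi-square per degree of freedom between 5.81 and 24.8). The 8 fibroblast markers, led by COL1A1 and COL1A2, summed to 22093 to 22397 CPM in control (counts scaled to library totals after TMM normalization), 12363 to 13740 at 3 days, 10590 to 10883 at 6 days and 19332 to 20255 in MetaICM. Of them 6 fell at 3 days and 5 at 6 days, when 13.2% and 17.2% of all tested genes were called lower. In MetaICM 1 of them was called higher than control, beside 7.41% of all tested genes. Epithelial markers, almost all KRT18, summed to 61.7 to 90.6 CPM in control, 29.97 to 31.3 at 3 days, 28.6 to 29.6 at 6 days and 58.2 to 61.9 in MetaICM, and both that were tested fell at both times. Endothelial markers summed to 2.32 to 2.85 CPM in control, 3.86 to 4.25 at 3 days, 4.56 to 4.94 at 6 days and 1.43 to 2.23 in MetaICM. The tested one, VWF, stood at a log2FC of 0.65 ± 0.28 at 3 days, not called, and rose at 6 days (0.88 ± 0.25). The 3 blood cell markers summed to 4.39 to 6.00 CPM in control, 16.9 to 21.1 and 17.96 to 20.5 with ICM and 13.0 to 13.2 in MetaICM. CD68, a lysosomal protein of macrophages, carried nearly all of this, whereas CD3E was at 0 in every library. The part of these shifts in the histone values was not tested. CDK1, the mitotic kinase, stood at 50.2 and 45.6 CPM in control, 5.15 and 4.52 at 3 days, 2.79 and 3.83 at 6 days, and 32.5 and 34.2 in MetaICM. CDKN1A, the p21 inhibitor of CDKs, stood at 137.3 and 95.2 CPM in control, 802.9 and 644.5 at 3 days, 801.5 and 793.6 at 6 days, and 364.6 and 391.4 in MetaICM. It was called higher than control in all 3 conditions.

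Not every member could be read. There were 8 members with no count in any library. For a gene whose reads are counted, 0 counts allow at most 0.129 to 0.248 CPM, by library. H2AC1 and H2BC1, a testis pair, are among them. The other 6 are the copies H2AC18 and H2AC19, H3C14 and H3C15, and H4C14 and H4C15. Each of these genes shares all of its exon bases with its copy in the counting annotation, so that a pair from there falls on more than 1 gene, and their 0 says nothing of their level. H4C7 had 2 counts in all, both in MetaICM, and H2AC7, which shares 85.3% of its exon bases with H3C4, had too few to be tested. In all, 56 members passed the filter on low counts in each comparison, and 51 in the comparison of 6 with 3 days. Members resemble each other, and for 19 of the 66 under 90% of the 50-base stretches of the exons occur once in the genome. Whether pairs that align equally well to several of them were counted cannot be read from the counts, which were also made without regard to strand. Medians at 3 days were -3.00 for the 43 tested members with at least 90% unique stretches and -3.04 for the 13 others. At 6 days they were -3.65 and -3.02, and between 6 and 3 days -0.66 (40 members) and -0.33 (11 members).

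As a group, the members stood at 23.8% of their control sum after 3 days of ICM, 23.9% after 6 days and 96.1% in MetaICM. Their share of all counted pairs was 0.132% and 0.119% in control, 0.0323% and 0.0306% at 3 days, 0.0305% and 0.0313% at 6 days, and 0.106% and 0.139% in MetaICM. Summed over members this was 1289 ± 133.0 CPM in control (SD, n = 2), 306.3 ± 13.3 at 3 days, 308.1 ± 9.34 at 6 days and 1239 ± 230.4 in MetaICM. The ICM libraries lay below all others at both times, and the control and MetaICM libraries overlapped. In bulk RNA, a change in the share of cells in S phase and a change in histone RNA per cell cannot be told apart. By FACS, the paper reports arrest in late S phase under ICM, with a larger share of cells there than after solvent (DMSO). The share of S phase cells in the cultures behind these libraries was not tested.

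In all 5 classes both ICM conditions lay below control and MetaICM, to different depths. At 6 days, H3 stood at 11.6% of its control sum, H4 at 19.6%, H2A at 20.3%, H2B at 28.4% and H1 at 30.9%. The H3 libraries held 210.3 and 188.8 CPM in control, 27.6 and 29.9 at 3 days, 23.0 and 23.1 at 6 days, and 172.4 and 246.3 in MetaICM. The H1 libraries held 349.0 and 305.4 CPM in control, 102.2 and 97.0 at 3 days, 95.5 and 106.9 at 6 days, and 259.7 and 325.9 in MetaICM. By place, the third chromosome 6 group, which holds H1-5 and H2BC14, was lowest, at 10.1% of control after 3 days and 6.14% after 6 days, and the other 3 groups stood between 23.2% and 38.4% at 6 days. These sums follow the members with the most counts, and the differences between classes and places were not tested.

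**Figure D1:**
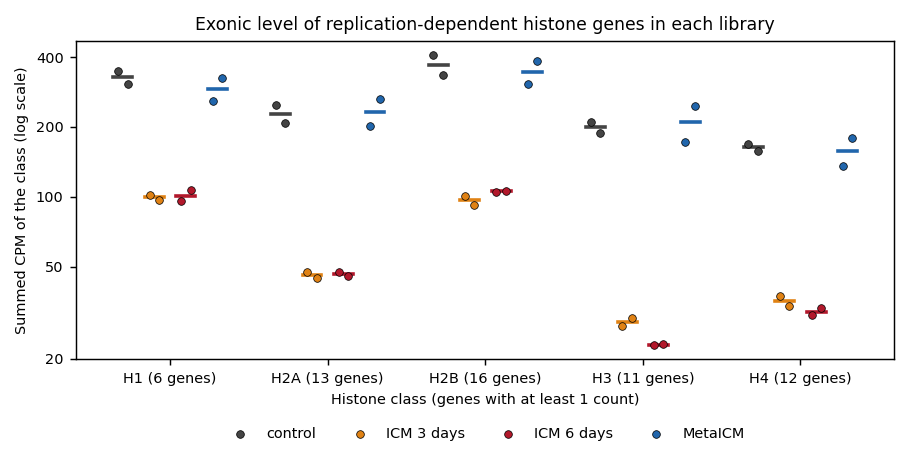
Summed CPM (log scale) of each histone class in each library (points) with the condition mean (line), by condition; the class names give the number of genes with a count. In every class both ICM conditions lie below control and MetaICM, with H3 falling from a mean of 199.5 to 23.0 CPM at 6 days.

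After 3 days of ICM, 53 of 56 tested members were downregulated, 1 was upregulated and 2 were not called. A gene was called at an adjusted p-value under 0.05 in edgeR's quasi-likelihood test and an absolute log2FC over 0.6, and 13.2% of the 15692 tested genes were called lower and 8.85% higher. The median log2FC was -3.01 over the members and 0.01 over all genes, and single members ran from -4.61 to 2.11. All 12 tested H2A, all 16 H2B and all 11 H3 genes fell, with 10 of 11 H4 and 4 of 6 H1 genes. By class the median was -3.31 for H3, -3.15 for H2A, -2.98 for H2B, -2.77 for H4 and -1.66 for H1.

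The member with the lowest log2FC at 3 days was H2BC14, an H2B gene at chr6:27782822-27783267. It held 12.6 and 8.78 CPM in control and 0.552 and 0.270 at 3 days, a log2FC of -4.61 ± 0.37 (SE, adjusted p = 1.72e-06 in edgeR). H2BC7, another H2B gene, went from 16.2 and 15.3 to 0.644 and 0.742 CPM (log2FC -4.51 ± 0.27). H4C13, an H4 gene, went from 10.6 and 7.12 to 0.368 and 0.472 CPM (log2FC -4.42 ± 0.36). In each of these the 3-day libraries lay below both controls, which the rule for naming them required.

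The genes with the highest level per kb of exon were read in full. In control H1-5 led, at 131.8 CPM per kb, followed by H1-2 at 111.9 and H1-4 at 101.0. H1-5 held 109.6 and 98.6 CPM in control, 7.49 and 8.16 at 3 days, 2.52 and 3.08 at 6 days, and 75.5 and 97.0 in MetaICM. H1-4 held 85.7 and 72.9 CPM in control, 24.4 and 22.1 at 3 days, 12.4 and 12.1 at 6 days, and 62.6 and 75.5 in MetaICM. Both fell in 2 steps, and neither ICM time overlapped with control. Among the core histones, H4C5 held 38.8 and 31.5 CPM in control, 9.93 and 9.44 at 3 days, 5.75 and 5.58 at 6 days, and 33.0 and 40.1 in MetaICM. H3C2 held 35.0 and 36.2 CPM in control, 2.85 and 2.49 at 3 days, 1.40 and 2.13 at 6 days, and 29.4 and 45.1 in MetaICM. The other leading core genes also fell at both times: H2AC8 (log2FC -3.01 and -3.65), H2AC11 (log2FC -4.36 and -5.08), H2BC8 (log2FC -2.38 and -2.79), H3C7 (log2FC -3.55 and -4.09), H3C3 (log2FC -3.31 and -4.43), and H4C3 (log2FC -2.80 and -3.12). H2BC4 fell less, (log2FC -1.38 and -1.03).

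**Figure D2:**
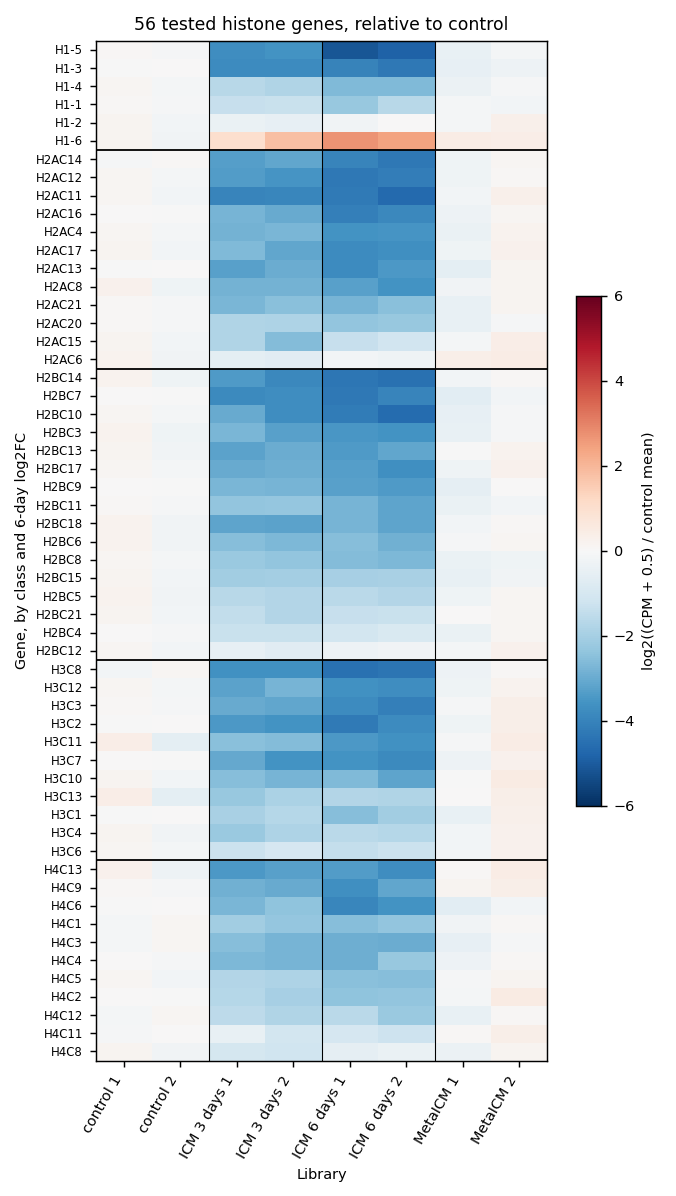
Log2 of (CPM + 0.5) over the control mean for the 56 tested members (rows, by class and 6-day log2FC) in the 8 libraries (columns). Blue marks values below control, and the 4 ICM libraries are blue for all members but a few, among them H1-6, which is red at 3 and 6 days.

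After 6 days, 51 of 56 tested members were downregulated, 1 was upregulated and 4 were not called, beside 17.2% of 15950 tested genes called lower and 13.3% higher. The median log2FC was -3.27 over the members and 0.00 over all genes. H2BC14 was again lowest, with 1 count over both 6-day libraries against 318 in control. That is a ratio of 412-fold lower with an exact 95% interval for counting error from 73.4 to 16326, and the fitted log2FC of -8.30 depends on the prior count. Its H2A neighbour H2AC14 held 10.9 and 11.8 CPM in control and 0.269 and 0.106 at 6 days (log2FC -5.87 ± 0.35). Only 27.4% of the 50-base stretches of H2AC14 are unique, which limits every value given for it. H1-5 was the third, at -5.22 ± 0.16. Control is shared by the comparisons at 3 and 6 days.

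**Figure D3:**
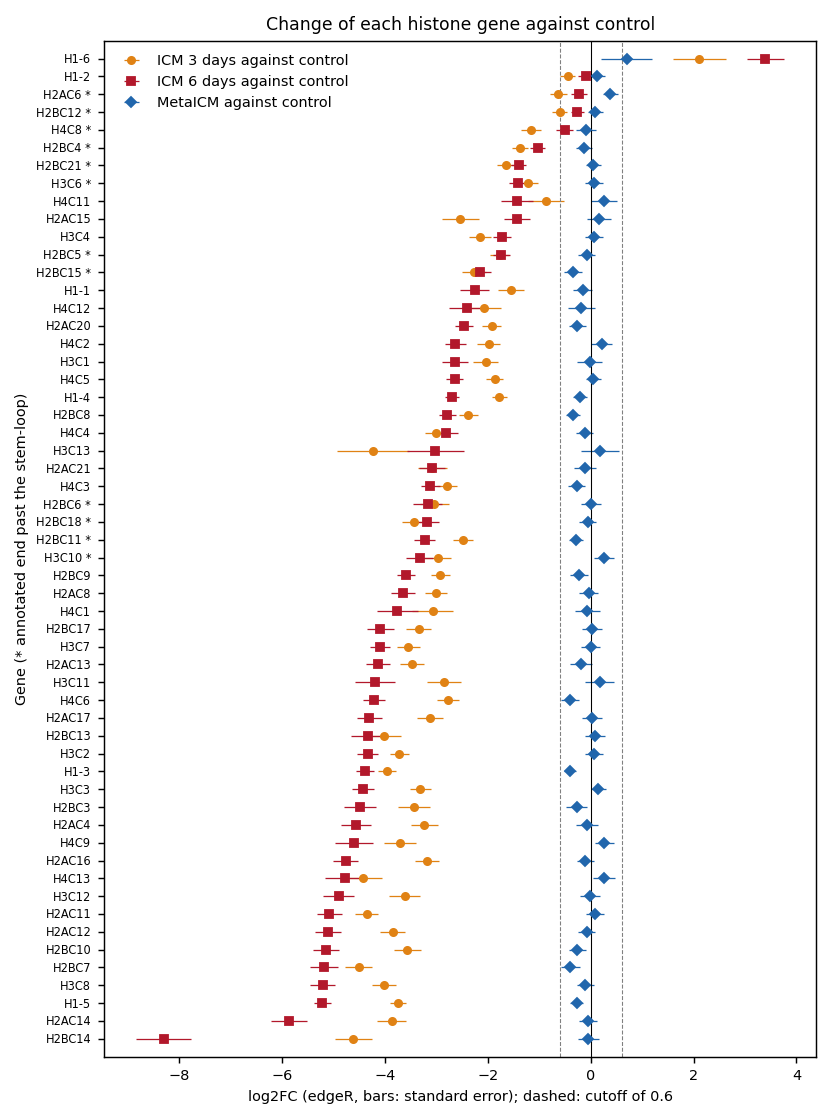
log2FC against control of each tested member (rows, sorted by the 6-day value) at 3 days, at 6 days and in MetaICM, with standard errors as bars and the cutoff of 0.6 dashed. Most members lie between -1 and -6 with ICM and all lie within 0.70 of 0 in MetaICM; H1-6 is the single member to the right at both ICM times.

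H1-6, the linker histone known from male germ cells, was the single member that rose. It had 10 and 4 counts in control, 31 and 43 at 3 days, 107 and 86 at 6 days, and 16 and 18 in MetaICM. In CPM these were 0.595 and 0.331, 1.43 and 2.90, 5.75 and 4.57, and 0.792 and 0.781, so neither ICM time overlapped with control. The log2FC was 2.11 ± 0.51 at 3 days (adjusted p = 0.00904, edgeR) and 3.40 ± 0.36 at 6 days (adjusted p = 4.43e-05, edgeR). Without the second 3-day library the 3-day log2FC was 1.58 and was no longer called. The gene, chr6:26107640-26108364 on the minus strand, lies inside the span that GENCODE gives to H2BC4 on the same strand (chr6:26086545-26124154). Its counts were low, and whether they come from its own promoter was not tested.

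A set of 4 members, 1 each of H1, H2A, H2B and H4, kept most of their level at 6 days. H1-2, a main somatic linker histone, held 91.9 and 71.9 CPM in control, 63.0 and 57.8 at 3 days, 70.9 and 83.0 at 6 days, and 76.3 and 101.9 in MetaICM. The 6-day and control libraries overlapped (log2FC -0.10, 95% interval -0.41 to 0.22), and at 3 days the log2FC was -0.44 (-0.76 to -0.12). That value passed the adjusted p but not the cutoff on the log2FC, and without the second control library it was -0.62 and called. H2AC6 held 42.0 and 31.5 CPM in control, 24.6 and 23.0 at 3 days, 33.1 and 30.2 at 6 days, and 47.1 and 49.5 in MetaICM. Its log2FC was -0.63 at 3 days, which was called, and -0.22 (-0.56 to 0.12) at 6 days. H2BC12 had 1029 and 604 counts in control, a mean of 55.6 ± 7.90 CPM (SD, n = 2), and held 38.8 and 34.6 CPM at 3 days, 45.4 and 48.1 at 6 days, and 51.7 and 67.1 in MetaICM. The log2FC was -0.60 at 3 days, just past the cutoff, and -0.26 (-0.55 to 0.04) at 6 days. H4C8 held 23.2 and 17.8 CPM in control, 9.75 and 8.63 at 3 days, 13.9 and 15.3 at 6 days, and 15.7 and 23.0 in MetaICM. It fell at 3 days (log2FC -1.16), and at 6 days its log2FC was -0.50 (-0.87 to -0.13). That 6-day value passed the adjusted p (0.0337, edgeR) but not the cutoff on the log2FC. H4C11, the other member not called at 3 days (log2FC -0.87, -1.63 to -0.11), fell at 6 days (log2FC -1.43), but 8.8% of its 50-base stretches are unique.

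With most members down, these 4 genes made up a larger part of the histone counts. They held 15.8% and 14.3% of the member counts in control, 43.1% and 41.8% at 3 days, 54.1% and 56.1% at 6 days, and 17.7% and 17.2% in MetaICM. H1-2 alone held 6.64% and 6.02% in control and 23.5% and 26.4% at 6 days. The 4 were picked for their values at 6 days, so this is a description with no test. Per kb of exon they were also the 4 highest members at 6 days, at 105.1 CPM per kb for H1-2, 58.0 for H2AC6, 52.7 for H2BC12 and 39.0 for H4C8, whereas H1-5 had gone from 131.8 to 3.55.

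**Figure D4:**
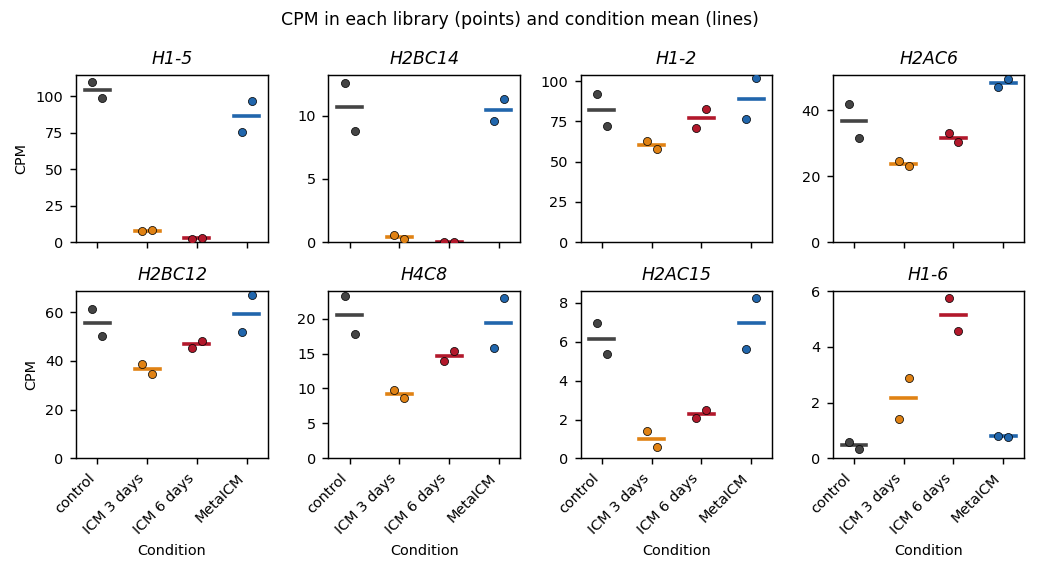
CPM in each library (points) and condition mean (lines) for 8 members, each axis starting at 0. H1-5 and H2BC14 come close to 0 with ICM, H1-2, H2AC6, H2BC12 and H4C8 stay near or return toward control at 6 days, H2AC15 is higher at 6 than at 3 days, and H1-6 rises to 5.75 and 4.57 CPM.

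Members whose annotated end lies beyond the stem-loop had a median log2FC nearer to 0 than the others. For 13 of the 66 members, RefSeq or GENCODE places an end over 100 bases past the stem-loop (past the counted exon where no stem-loop was found), and 12 of these were tested. At 6 days their median log2FC was -1.57 (range -3.32 to -0.22) and 9 of 12 were called lower, and for the other 44 tested members it was -4.11 (range -8.30 to 3.40) with 42 called lower. At 3 days the medians were -1.71 and -3.15. For H2BC7, H2BC8 and H4C6, among the other 44, no GENCODE model was matched, so only RefSeq ends were read. Their 6-day log2FC values were -5.18, -2.79 and -4.21. H2AC6, H2BC12, H4C8 and H2BC4 belong to the first set, and H1-2, H1-5, H1-6 and H2BC14 to the second. GENCODE runs H2AC6 14432 bases past its stem-loop and H4C8 7522 bases, and RefSeq runs H2BC12 8073 bases past. The split was made after these values were known and was not tested, and the counts do not show which end a read came from.

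Head-to-head genes, which share the stretch between their starts, had close log2FC values in some pairs and far ones in others. In 12 pairs a member on the minus strand and one on the plus strand start 223 to 346 bases apart, 10 of them with both members tested. At 6 days the log2FC of the partners differed by less than 1 in 5 pairs and by more in 5. Among the latter 5, H2AC14 and H2BC14 had 7 and 1 counts over both 6-day libraries, and their log2 ratios (H2BC14 to H2AC14, with 0.5 CPM added to each) of -0.47 and -0.28 overlapped those of control, 0.20 and -0.40. Both genes were below 0.5 CPM at 6 days, so the added value pulls the ratios toward 0. Their overlap with control cannot show whether the partners fell alike. H2BC7 and H3C4 are another of the 5, and there the RefSeq model of H3C4 starts at the same base as H2AC7 (position 26199521 of chromosome 6), whereas the GENCODE model of H3C4 starts at 26197514, farther from H2BC7. H2AC13 and H2BC13 stood at -4.13 and -4.32, and H2AC17 and H2BC17 at -4.31 and -4.09. Of the 50-base stretches of H2AC13, 32.6% are unique. H2AC12 and H2BC12, with 223 bases between their starts, stood at -5.10 and -0.26. H2BC12 is counted over 2 exon intervals of 887 bases in all, with 65.1% of its 50-base stretches unique. H2AC12 is counted over 1 interval of 481 bases, with 97.0% unique. The 2 genes of this pair are therefore not counted over like stretches. On the same scale, the log2 ratio of H2BC12 to H2AC12 was 1.59 and 1.52 in control, 4.39 and 4.41 at 3 days and 5.54 and 5.49 at 6 days, without overlap between the conditions. H2AC11 and H2BC11 stood at -5.08 and -3.22, and their log2 ratio went from -0.38 and -0.25 in control to 1.11 and 1.15 at 6 days. The pairs were set out after earlier values were known.

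From 3 to 6 days the members moved in both directions. Of 51 tested, 13 fell further, 3 rose and 35 were not called, beside 4.54% of 15845 genes called lower and 3.53% higher. The median log2FC was -0.61 over the members and -0.01 over all genes. H1-5 (log2FC -1.48 ± 0.21) and H1-4 (-0.93 ± 0.13) had adjusted p-values of 6.38e-05 and 4.20e-05 in edgeR. The members with the lowest log2FC were H2AC14 at -2.01 ± 0.60, H2AC16 at -1.58 ± 0.39 and H2BC10 at -1.58 ± 0.41. The 3 that rose were H1-6 (log2FC 1.31 ± 0.29), H2AC15 (1.09 ± 0.37) and H4C8 (0.66 ± 0.15). H2AC15 held 6.96 and 5.38 CPM in control, 1.43 and 0.607 at 3 days, 2.09 and 2.50 at 6 days, and 5.64 and 8.25 in MetaICM. The number lower was 4 by DESeq2, 7 without the first 3-day library, 6 without the first 6-day library and 5 without the second. Without that second 6-day library, 1 member was called higher. H2AC14, H2AC15, H2AC16, H2BC10 and H4C8 each lost the call without at least 1 library.

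No member was called between MetaICM and control. None of the 56 tested members was called in either direction by edgeR or DESeq2, beside 7.41% of 15904 genes called higher and 8.99% lower in edgeR. The median log2FC was -0.05 over the members and 0.00 over all genes, and members ran from -0.40 to 0.70. At an unadjusted p under 0.05, 4 members differed by edgeR and 2 by DESeq2. H1-3, a somatic linker histone, held 53.5 and 54.8 CPM in control and 37.8 and 44.2 in MetaICM, and its log2FC of -0.40 ± 0.12 (adjusted p = 0.0349, edgeR) was under the cutoff. The 95% interval of the log2FC lay within 1 of 0 for 54 of 56 members and within 0.6 for 33. The 2 exceptions were H1-6 (-0.39 to 1.79) and H3C13 (-0.64 to 1.01). H3C13 shares 60.8% of its exon bases with H3P4, and 22.1% of its 50-base stretches are unique. Without the first control library, 4 members were called higher.

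Against the ICM libraries the MetaICM members were higher. Against 6 days, 52 of 56 were higher, 1 was lower and 3 were not called, beside 15.7% of 16036 genes called higher and 12% lower. Against 3 days, 54 were higher, 1 was lower and 1 was not called, beside 13.1% of 16209 genes higher and 10.3% lower. The medians were 3.29 and 3.00. The extremes against 6 days were H2BC14 (8.32, again from 1 count), H2AC14 (5.83 ± 0.33) and H2AC11 (5.17 ± 0.22). Against 3 days they were H4C13 (4.70 ± 0.30), H2BC14 (4.58 ± 0.29) and H2AC11 (4.45 ± 0.22). H1-6 was the member that fell (log2FC -2.70 ± 0.27 and -1.40 ± 0.40), the latter not called without the second 3-day library, where it was -0.85. All 3 comparisons with MetaICM share its libraries.

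Of the factors that act on histone promoters, some fell and NPAT itself was not called. Of 12 listed, 4 fell at 3 days and 5 at 6 days, none rose, and the medians were -0.34 and -0.44. Over all tested genes, 13.2% were lower and 8.85% higher at 3 days, and 17.2% and 13.3% at 6 days. The medians over all genes were 0.01 and -0.001. NPAT held 45.4 and 50.8 CPM in control, 35.9 and 39.7 at 3 days, 35.2 and 40.6 at 6 days, and 34.1 and 35.6 in MetaICM. Its log2FC was -0.35 ± 0.14, -0.35 ± 0.13 and -0.47 ± 0.12, all short of a call. CASP8AP2 (FLASH), which joins NPAT in the histone locus body, fell (log2FC -0.72 and -0.86). CCNE2, a cyclin E, fell (log2FC -1.80 and -1.35), CDK2 (log2FC -0.69 and -0.74), and NFYB, a subunit of NF-Y, (log2FC -0.71 and -0.97). NFYA, a further subunit of NF-Y, was called lower at 6 days (log2FC -0.71 ± 0.15) and stood at -0.32 ± 0.15 at 3 days, which was not called. Between 6 and 3 days its log2FC was -0.39 ± 0.12, short of the fold a call needs. No factor was called in MetaICM against control, beside 7.41% of all tested genes called higher and 8.99% lower.

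Few genes of the 3′ end machinery and of histone mRNA decay were called. Of 20 listed, 1 was lower at both times and 1 higher at 6 days, with medians of -0.10 and -0.11. Over all tested genes the shares lower were 13.2% at 3 days and 17.2% at 6 days, and the shares higher 8.85% and 13.3%. SLBP held 22.5 and 21.3 CPM in control, 17.7 and 15.5 at 3 days, 15.0 and 15.1 at 6 days, and 25.7 and 28.5 in MetaICM. Its log2FC was -0.40 ± 0.16 and -0.55 ± 0.14, which was not called. LSM11, a subunit of the U7 snRNP, stood at -0.57 ± 0.24 and -0.46 ± 0.23, also not called. ZNF473, a U7 snRNP-associated zinc finger protein, fell (log2FC -0.85 and -0.67). LSM1, of the ring that starts histone mRNA decay, rose by 0.67 at 6 days and by 0.62 in MetaICM.

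Histone chaperones, which carry new histones to DNA, were mixed. Of 20, 8 fell and 1 rose at 3 days, and 9 fell and 1 rose at 6 days. Among all tested genes 13.2% fell and 8.85% rose at 3 days, and 17.2% fell and 13.3% rose at 6 days. CHAF1A (log2FC -1.24 and -1.68) and CHAF1B (log2FC -1.77 and -2.26), subunits of the replication-coupled chaperone CAF-1, fell. RBBP4, a further subunit of it, stood at -0.40 ± 0.13 at 3 days, not called, and fell at 6 days (log2FC -0.61 ± 0.12). ASF1B fell (log2FC -2.84 and -3.35), whereas its paralog ASF1A rose (log2FC 1.34 and 1.41). ASF1A held 21.8 and 25.7 CPM in control, 61.1 and 59.2 at 3 days, 64.9 and 61.5 at 6 days, and 20.7 and 21.1 in MetaICM. NASP, a chaperone of soluble H3 and H4, fell (log2FC -0.76 and -0.998). HJURP, the chaperone of CENPA, fell (log2FC -3.77 and -4.29) and stayed lower in MetaICM (log2FC -0.80).

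Of the replacement and other histones outside the rule, 11 of 15 found in the files were tested, and 4 fell at both times. The shares of all tested genes called lower were 13.2% at 3 days and 17.2% at 6 days. CENPA, the centromeric H3, held 5.83 and 7.37 CPM in control, 0.184 and 0.337 at 3 days, 0.215 and 0.425 at 6 days, and 4.55 and 4.43 in MetaICM (log2FC -4.69 and -4.33). H2AZ1 fell (log2FC -1.13 and -0.999), H2AX (log2FC -1.06 and -1.17) and H2AZ2 (log2FC -0.64 and -0.82). Both genes of the replacement histone H3.3 were not called. H3-3B stood at a log2FC of -0.32 ± 0.13 and -0.17 ± 0.12, and H3-3A at -0.73 ± 0.47 and -0.78 ± 0.43 from under 2 CPM. H2AJ rose in MetaICM (log2FC 1.09 ± 0.21) and stood at 0.54 ± 0.23 and 0.56 ± 0.21 with ICM, which was not called.

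**Figure D5:**
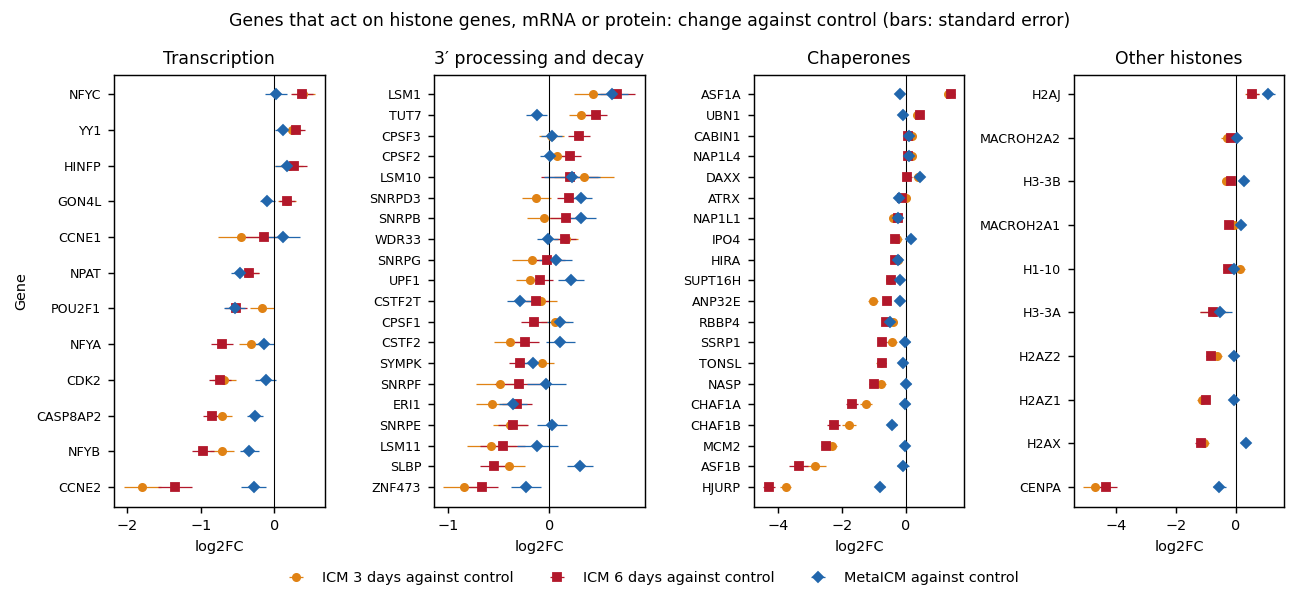
log2FC against control of tested genes that act on histone genes, mRNA or protein, and of other histones (1 listed gene not drawn), at 3 days, at 6 days and in MetaICM (bars, standard error; the scale differs by panel). With ICM, CENPA and HJURP lie below -3.5, ASF1A above 1.3, and SLBP and NPAT between -0.6 and -0.3.

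The S phase genes that accompany histone supply fell as well. Of 20, 18 fell at 3 days and 17 at 6 days, with medians of -1.887 and -1.997, and none was called in MetaICM against control. Among all tested genes 13.2% fell at 3 days and 17.2% at 6 days. In MetaICM 8.99% of all tested genes were called lower and 7.41% higher. RRM2, a subunit of ribonucleotide reductase, held 169.0 and 161.8 CPM in control, 19.3 and 22.0 at 3 days, 19.9 and 22.3 at 6 days, and 117.7 and 123.0 in MetaICM. PCNA, the replication clamp, stood at -0.40 ± 0.13 and -0.38 ± 0.12, which was not called. Of 14067 other genes ranked by Pearson's r of log2 CPM with the summed members over the 8 libraries, ZNF367, BIRC5, RFC2, KLF13 and UBE2C came first, with r from 0.996 to 0.998. The libraries share 4 conditions, so this only orders genes by likeness. BIRC5, a mitotic and anti-apoptotic protein, went from a mean of 16.8 CPM in control to 1.24 and 0.961 with ICM and 16.4 in MetaICM.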

How the data were processed

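Per the labels and methods, paired-end reads were aligned to hg19 (GRCh37) with STAR 2.6.0c, and per the file headers featureCounts 1.6.3 counted pairs on RefSeq exons, both ends mapped, without chimeric pairs and without a strand option. The deposited values are these raw counts per gene, not normalized. Conditions were compared in pairs of 2 libraries (4 per fit) with edgeR 4.0.16 (R 4.3.3): TMM normalization, filterByExpr (minimum count 10), and its quasi-likelihood F test, adjusted over all tested genes (Benjamini-Hochberg). Levels are CPM on TMM-scaled totals. Calls needed adjusted p under 0.05 and log2FC beyond 0.6 either way. DESeq2 1.42.0, DESeq2 size factors in edgeR, library totals, other count filters, 1 fit of all 8 libraries, a replicate block, a p-value limit of 0.01 and leaving out each library were alternatives. The scripts were tested on simulated counts. Members and lists were chosen with earlier results of these data known. Text names the 3 members per class with most CPM per kb, and members called against the majority. It also names the 3 most changed called members in each direction and comparison. For these, libraries of the 2 groups could not overlap, and each higher library needed at least 10 counts. CDK1, CDKN1A, SLBP and other regulators were listed by hand. Members named outside this rule were chosen after their values were seen. H2BC12L was not analysed here. A further listed gene is not reported here. Exact intervals cover counting error only. Depth is given in the report. Sequences came from the GRCh37 genome and GENCODE v44 (lifted to GRCh37) and RefSeq gene models. Figures used matplotlib 3.10.9.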

Additional observations from a re-analysis of the deposited data

How the results depend on the processing

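The number of members called lower with ICM against control was 51 to 54 at 3 days and 51 to 52 at 6 days when each library was left out in turn. The count called higher was 0 to 1 at 3 days and 1 to 1 at 6 days, and a minimum of 10 counts in every library gave 0 at both times, since H1-6 has 4 counts in a control library and was not tested. Between 6 and 3 days the count lower was 4 with DESeq2 and 5 at an adjusted p under 0.01, and 5 to 11 with a library left out, with 1 to 3 higher. In MetaICM, leaving out a library gave 0 to 4 members higher and 0 lower than control, 51 to 53 higher and 1 to 1 lower than at 6 days, and 52 to 55 higher and 0 to 1 lower than at 3 days, where an adjusted p under 0.01 also left 0 lower. The cause of the other shifts was not tested. No alternative reversed a value. Of the values for named genes, 244 kept their side of the threshold, 23 lost the call and 1, H1-2 at 3 days, gained it. Deviations of same-numbered libraries correlated between -0.13 and 0.23. With 2 libraries per condition this cannot settle whether the numbers pair the libraries, and the reported fits used no pairing. With the replicate block, 53 members were lower at 3 days, 51 at 6 days and 14 at 6 against 3 days, and with crossed numbers MetaICM against 3 days gave 54 higher and 1 lower. Depth limits the lowest members: H2BC14 had 1 count at 6 days.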
